A study of Mus musculus with 6 samples.

Results

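The guanylate-binding proteins (Gbp) and the immunity-related GTPases (IRG) are described here in mouse macrophages that overexpress angiotensin-converting enzyme (ACE) and in wild-type (WT) macrophages. The set was chosen by gene symbol and holds 9 of the 25509 gene rows of the count table: Gbp2, Gbp3, Gbp5, Gbp7, Gbp9, Irgm1, Irgm2, Igtp and Iigp1. All 9 symbols were found, each on 1 row. Both families are GTP-hydrolysing proteins of macrophages and other cells whose genes are switched on mainly by interferon-gamma and, to a lesser degree, by type I interferon. They gather on the vacuoles in which bacteria and parasites live, or on bacteria set free in the cytosol, and help to break these open, to restrict growth and to alert inflammasomes. In the IRG family, Irgm1, Irgm2 and Igtp (also called Irgm3) are regulators that sit on the cell's own membranes, whereas Iigp1 (Irga6) is an effector that loads onto the vacuole.

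Poly-A RNA had been sequenced from 3 Tg-ACE and 3 WT libraries of C57BL/6 mice, the Tg-ACE mice being labelled JWT and described as overexpressing ACE. The cells were peritoneal macrophages elicited with thioglycollate, a sterile irritant, taken on day 4, purified on Percoll and kept after 2 h of adherence in culture. No library had been treated with interferon or infected, per the labels. Each library description also holds an experiment code, Exp-156 for replicate 1 of both groups and Exp-156b for the others, with no statement of what it means. The promoter of the transgene and the age of the mice are not given in the sources used here. Nothing states that replicates came from separate mice, so p-values measure the spread between these libraries, which may in part be technical.

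Library totals ranged from 24294244 to 28120393 counts. Ace, the overexpressed gene, stood at 100.6, 25.6 and 31.8 CPM (counts scaled to library size) in the Tg-ACE libraries and at 16.7, 7.60 and 11.6 CPM in the WT libraries, so each Tg-ACE library lay above every WT library. The first principal component, with 74.6% of the variance, divided the libraries by experiment code. Female-specific Xist ranged over 0.41 to 0.53 CPM in Exp-156, against 327.3 to 454.5 CPM in Exp-156b, and Y-linked Ddx3y over 48.0 to 51.6 CPM, against at most 0.11 CPM, so that code and sex cannot be told apart. All 10 macrophage core markers were present, and their sum reached 18230 to 21900 CPM in Tg-ACE and 18560 to 22180 CPM in WT.

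Gbp2, Gbp3, Gbp5 and Gbp7 lie together on the forward strand of chromosome 3 of GRCm38, between the start of Gbp5 at 142493978 and the end of Gbp2 at 142638008. Gbp9 lies on the reverse strand of chromosome 5 at 105077630 to 105139539. Irgm1 is on the reverse strand of chromosome 11 at 48861968 to 48871683. Igtp, at 58199556 to 58207591 on the forward strand of the same chromosome, falls inside the annotated span of Irgm2, which runs from 58199618 to 58222782 on that strand apart from the first bases of Igtp. All 9 members are protein-coding genes in GENCODE vM21.

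The promoters show what the genes share in sequence. The interferon-stimulated response element (ISRE), a site read by interferon regulatory factors, was searched as GAAA, any 2 bases and GAAA again, which on the other strand is TTTC, any 2 bases and TTTC. The gamma-activated site (GAS), through which interferon-gamma acts on its target genes, was searched as TTCNNNGAA, which reads alike on both strands. RefSeq (GRCm38.p6) promoter windows, from 250 bases before to 50 bases after a start, were taken by symbol for 7 of the 9 genes. No window matched Gbp9, and none was taken for Iigp1. The 7 genes have 8 windows, since Gbp3 has 2. An ISRE match was present in 7 of the 8, 1 for each gene, against 3.44% of 32851 windows of all genes, and a GAS match in 4 of the 8 (Gbp5, Gbp7, Igtp and Irgm2), against 8.3%. Both motifs stood together in those 4 windows, against 0.45% of all windows, and the second window of Gbp3 held neither. In no member window did an ISRE match overlap a GAS match, but the 2 ISRE matches of Irgm1 and of Gbp3 overlap each other. A match is a description of the letters and not a proven binding site. The 120 bases before the start are printed for the 5 genes that show the range of arrangements, 5′ to 3′ on the coding strand, with both motifs in capitals. Igtp (chr11:58199436-58199555) and Irgm2 (chr11:58214857-58214976) carry a GAS match followed by an ISRE match, Gbp7 (chr3:142530216-142530335) has 2 GAS matches before its ISRE, and Irgm1 (chr11:48871421-48871540, reverse strand) and Gbp2 (chr3:142620543-142620662) have ISRE matches alone.
Igtp: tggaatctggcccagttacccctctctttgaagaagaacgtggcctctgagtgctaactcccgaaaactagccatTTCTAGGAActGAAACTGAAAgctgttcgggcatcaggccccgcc
Irgm2: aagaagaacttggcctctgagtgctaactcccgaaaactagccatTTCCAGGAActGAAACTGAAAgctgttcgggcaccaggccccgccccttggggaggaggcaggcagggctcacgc
Gbp7: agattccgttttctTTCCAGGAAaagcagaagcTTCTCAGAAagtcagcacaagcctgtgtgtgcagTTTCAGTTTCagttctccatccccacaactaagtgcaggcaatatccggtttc
Irgm1: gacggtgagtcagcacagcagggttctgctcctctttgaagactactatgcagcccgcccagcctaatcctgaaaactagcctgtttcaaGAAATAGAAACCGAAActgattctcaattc
Gbp2: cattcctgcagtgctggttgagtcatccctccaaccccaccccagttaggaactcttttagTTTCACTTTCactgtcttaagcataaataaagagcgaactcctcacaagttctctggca
The Igtp and Irgm2 windows share an identical run of 61 bases, which starts after both motifs.

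Most of these genes also share transcript sequence with other genes, and that limits how well reads can be assigned. In GENCODE vM21 transcripts, 11.28% of the 75-base windows of Gbp7 also occurred in transcripts of another gene on the same strand, most of them in the gene model Gm43802. The share was 7.8% for Igtp, all of it with Irgm2, and 4.78% for Irgm2, 3.61% for Gbp9, 2.06% for Gbp3, 0.95% for Gbp2 and 0.58% for Gbp5. Irgm1 and Iigp1 shared none. All 6 expected counts were fractional for Gbp3, Gbp7, Gbp9, Igtp and Irgm2, 66.7% of them for Gbp2, and none for Gbp5, Irgm1 and Iigp1. Values of Gbp7, Igtp and Irgm2 are the least certain of the set on this account.

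The basal level of the set differed widely between genes. Dividing CPM by the exon length of the gene, the mean over the 6 libraries was 9.65 CPM per kilobase (kb) for Gbp2, 8.46 for Irgm1 and 8.05 for Igtp, which overlap in range. Irgm2 (4.79 CPM per kb) and Gbp3 (4.47) followed, then Gbp7 (2.25) and Gbp9 (2.23). Gbp5 reached 0.362 and Iigp1 0.0797 CPM per kb. The lowest library of Gbp3 (3.76 CPM per kb) stood above the highest of Gbp7 (3.63), the lowest of Gbp9 (1.29) above the highest of Gbp5 (0.509), and the lowest of Gbp5 (0.234) above the highest of Iigp1 (0.213). Other neighbours in this order overlapped, Igtp and Irgm2 included (lowest Igtp library 6.72, highest Irgm2 library 7.56 CPM per kb).

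No difference between Tg-ACE and WT in the level of these GTPase genes was larger than the spread between libraries. Of the 8 members that passed the filter on low counts, none was called by the quasi-likelihood test of edgeR (Benjamini-Hochberg adjustment over all tested genes, threshold 0.05), where 0.0% of 12827 genes were called, and none reached an unadjusted p under 0.05, where 126 genes (0.982%) did. DESeq2 called 9 genes, none of them a member. The fitted log2 fold changes, Tg-ACE minus WT, ran from -0.06 for Gbp9 (SE 0.487) to 0.12 for Gbp3 (SE 0.174), and their median was 0.03 against -0.01 over all tested genes. The groups overlapped for all 8, whereas 2.38% of all tested genes had every Tg-ACE library above every WT library and 2.53% had every one below. On simulated counts with the spread of these libraries this fit found 18% of changes of 1 on the log2 scale. It found 92.8% of changes of 2, so smaller changes were mostly not detectable. The simulation gave every gene the same dispersion and no shift by experiment code, so its shares need not hold for each gene. Ace, with a log2 fold change of 2.14 and an unadjusted edgeR p under 0.05, was not called by this fit. With the experiment code as a term (1.95) edgeR did not call it either, and DESeq2 called it only with that term.

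**Figure D1:**
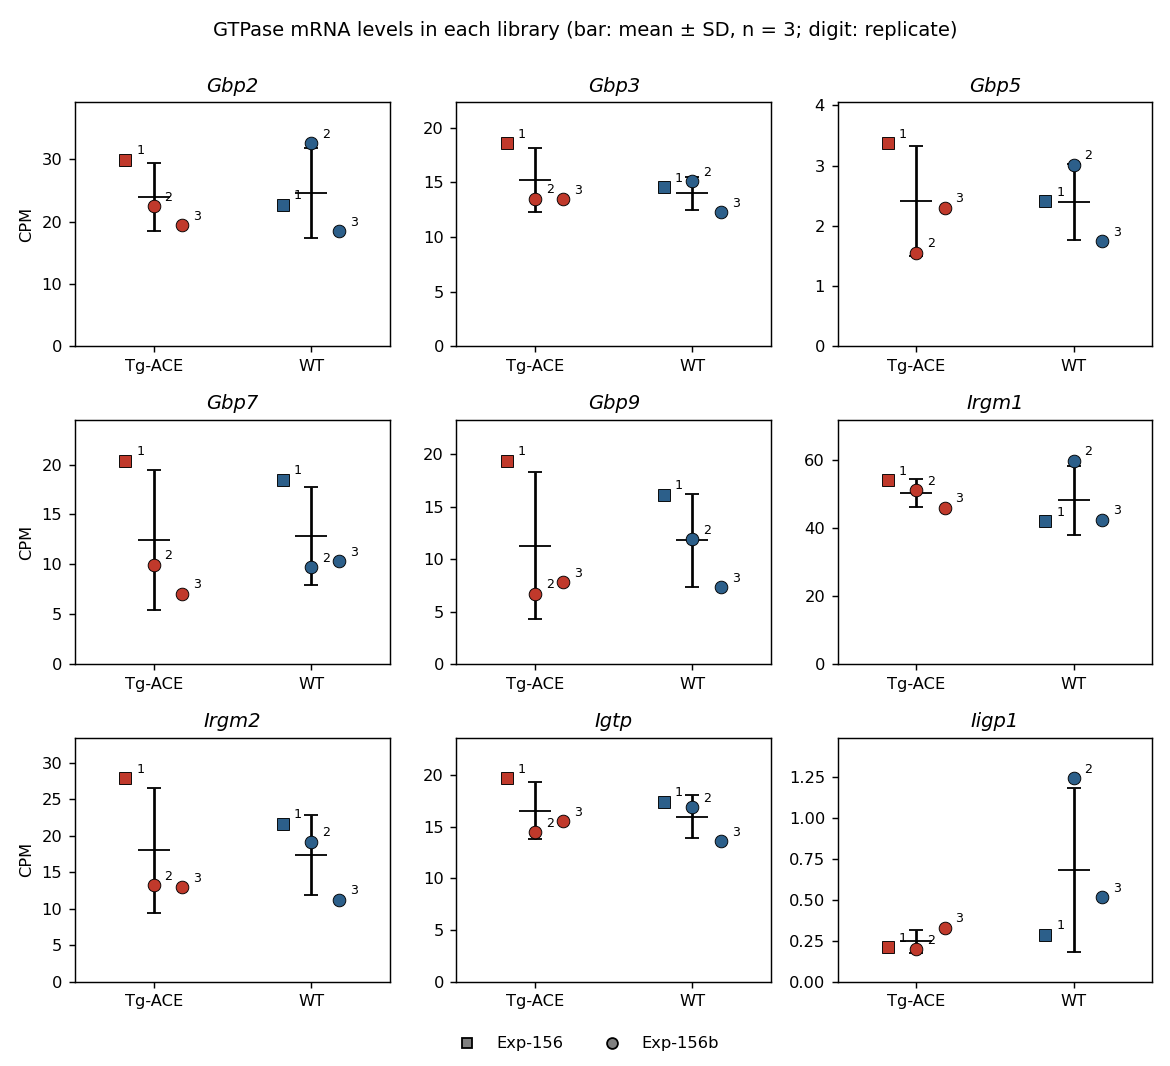
Level of the 9 genes in CPM (y axis, from 0) in the Tg-ACE and WT libraries; squares are Exp-156 and circles Exp-156b libraries, and the bar is the mean ± SD (n = 3). Tg-ACE and WT overlap in every panel, and Gbp7 and Gbp9 are highest in the Exp-156 libraries of both genotypes.

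Gbp2 is a prenylated member that coats parasite vacuoles and bacteria. It stood at 29.9, 22.5 and 19.4 CPM in Tg-ACE and at 22.7, 32.6 and 18.5 CPM in WT. The groups overlap, and the highest and lowest libraries are both WT, of the same experiment code. The log2 fold change was -0.04 (95% interval -0.67 to 0.59).

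Gbp3, which is recruited to parasite vacuoles with the other members of the chromosome 3 cluster, stood at 18.6, 13.5 and 13.5 CPM in Tg-ACE and at 14.6, 15.1 and 12.3 CPM in WT. Only Tg-ACE replicate 1 lies outside the WT range. Gbp5, which promotes inflammasome activation in macrophages, was far less abundant, at 3.38, 1.55 and 2.30 CPM in Tg-ACE and 2.41, 3.02 and 1.75 CPM in WT. Tg-ACE held both its highest and its lowest library. Its interval was wide, from -0.88 to 0.90 on the log2 scale.

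Gbp7 has been linked to the assembly of the phagocyte NADPH oxidase. It stood at 20.4, 9.96 and 7.03 CPM in Tg-ACE and at 18.5, 9.73 and 10.3 CPM in WT. Replicate 1 was the highest library of each genotype. Gbp9, the chromosome 5 member of the set, stood at 19.4, 6.69 and 7.77 CPM in Tg-ACE and 16.1, 11.9 and 7.31 CPM in WT. Here too replicate 1 of each genotype was highest, and WT replicate 2 lay between these and the remaining libraries.

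Irgm1, a regulator required for resistance of mice to mycobacteria and other intracellular pathogens, was the member with the most reads. It stood at 54.0, 51.0 and 45.8 CPM in Tg-ACE and at 42.0, 59.7 and 42.3 CPM in WT. The Tg-ACE values lie within the WT range, and the error was the smallest of the 8 tested members (log2 fold change 0.07, SE 0.162). Irgm2, a regulator that also restrains caspase-11 signalling, stood at 27.9, 13.2 and 12.9 CPM in Tg-ACE and 21.6, 19.2 and 11.2 CPM in WT. Igtp stood at 19.7, 14.5 and 15.5 CPM in Tg-ACE and 17.4, 16.9 and 13.6 CPM in WT. For both genes Tg-ACE replicate 1 was highest and WT replicate 3 lowest.

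The effector Iigp1, on chromosome 18, was close to the limit of detection and did not pass the filter. Its counts were 6, 5 and 8 in Tg-ACE (0.211, 0.199 and 0.329 CPM) and 7, 35 and 13 in WT (0.286, 1.24 and 0.517 CPM). Only WT replicate 2 stood clear, with an exact Poisson 95% interval of 24.4 to 48.7 counts, against 6.92 to 22.2 for WT replicate 3 (counting error only). The groups overlap, since Tg-ACE replicate 3 exceeds WT replicate 1. With no filter the log2 fold change was -1.47 (edgeR adjusted p = 1).

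Adding the experiment code to the fit narrowed the errors without a call. With the code as a term, edgeR called 2 of 12827 genes (0.0156%) and none of the 8 members, none of which had an unadjusted p under 0.05 (6.48% of all genes did). With the replicate number as a block it also called 2 genes and no member. The tightest interval was that of Igtp, from -0.21 to 0.30 (log2 fold change 0.04), and the widest that of Gbp5, from -0.74 to 0.68 (log2 fold change -0.03). No interval of the 8 tested genes in this fit reached beyond the bounds of the Gbp5 interval.

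**Figure D2:**
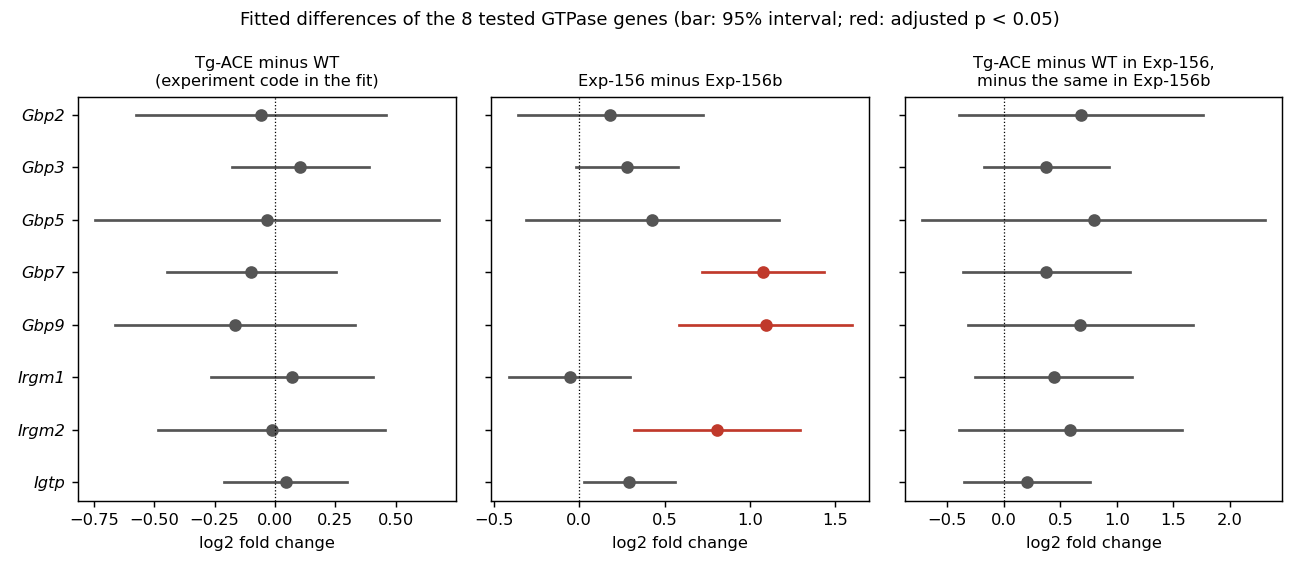
Fitted log2 fold changes (points) with 95% intervals (bars) of the 8 tested genes for Tg-ACE minus WT with the experiment code in the fit, for Exp-156 minus Exp-156b, and for the difference of the genotype effect between the experiments. Only Gbp7, Gbp9 and Irgm2 in the middle panel, drawn in red, passed the adjusted threshold; each panel has its own log2 axis.

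The genotype difference pointed in opposite directions in the 2 experiments, but in Exp-156b the direction of most members rested on WT replicate 2. Within Exp-156, with 1 library per genotype, Tg-ACE lay above WT for all 8 tested members, by a median of 0.36 in log2 CPM (all genes -0.01). It did so for 48.7% of all tested genes. Within Exp-156b, with 2 libraries each, the mean of Tg-ACE lay below that of WT for all 8, by a median of -0.20 (all genes -0.01). This combination of signs was seen in 27.1% of all tested genes. The difference between the experiments ran from 0.20 for Igtp (interval -0.35 to 0.76) to 0.80 for Gbp5 (interval -0.72 to 2.31). These values rested on single libraries: over the fits that leave out 1 Exp-156b library they ran from 0.22 to 1.03 for Gbp2, 0.34 to 1.12 for Gbp5, 0.15 to 0.91 for Irgm2 and 0.037 to 0.34 for Igtp, and without WT replicate 3 there were 4 of 8 members with an unadjusted p under 0.05 (1013 of 13212 genes), none of them called. In edgeR's test of the interaction on all 6 libraries no member passed (adjusted p from 0.704 to 0.823), and none had an unadjusted p under 0.05. No gene passed that test (0.0%), 7.65% had an unadjusted p under 0.05, and DESeq2 called 13 genes, none of them a member. All residual error in this test comes from the 4 Exp-156b libraries, and on simulated counts it found 44% of differences of 1 on the log2 scale.

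**Figure D3:**
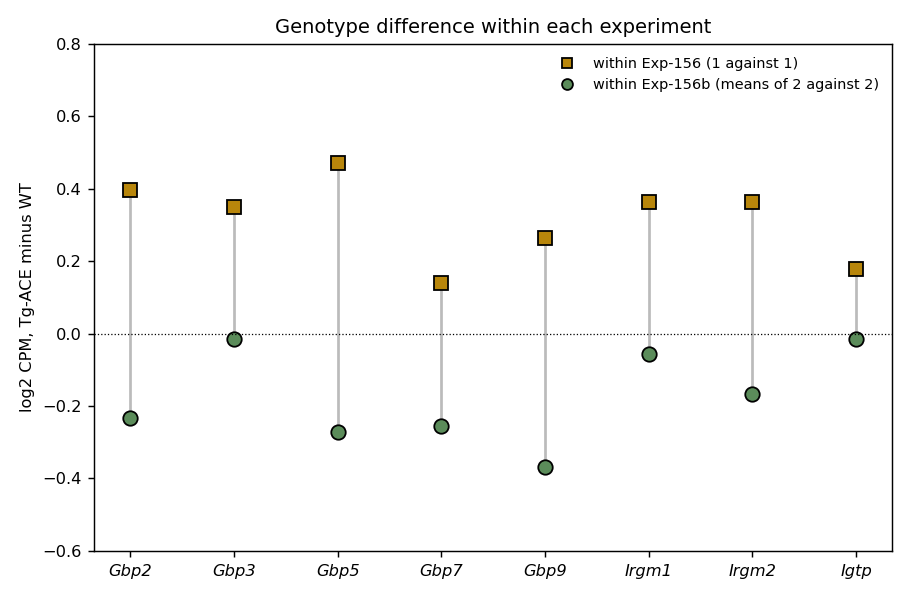
Difference of log2 CPM, Tg-ACE minus WT (y axis), of each tested gene within Exp-156 (squares, 1 library against 1) and within Exp-156b (circles, means of 2 against 2). Squares lie above 0 and circles below 0 for all 8 genes, from 0.47 for Gbp5 in Exp-156 to -0.37 for Gbp9 in Exp-156b. The circles of Gbp3 (-0.014) and Igtp (-0.016) lie close to 0.

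A spread between libraries of one genotype and one code was as large as these differences. WT replicate 2 held 1.77 times the Gbp2 CPM of WT replicate 3, 1.73 times that of Gbp5, 1.70 times that of Irgm2, 1.63 times that of Gbp9 and 1.41 times that of Irgm1. It was the highest of the 4 Exp-156b libraries for 7 of the 8 tested members, Gbp7 being the exception, and this held for 26.4% of all tested genes. The median log2 difference of WT replicate 2 over WT replicate 3 was 0.60 for the members and -0.00 for all genes. Tg-ACE replicate 2 over Tg-ACE replicate 3 gave medians of 0.02 and -0.00. Without WT replicate 2 the log2 fold change, Tg-ACE minus WT, was 0.22 for Gbp2, and without Tg-ACE replicate 1 it was -0.23, neither of them called.

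Between the experiment codes, Gbp7, Gbp9 and Irgm2 were higher in Exp-156. Gbp7 averaged 19.4 ± 1.34 CPM in Exp-156 (SD, n = 2) and 9.25 ± 1.501 CPM in Exp-156b (SD, n = 4), a log2 fold change of 1.08 (SE 0.153, edgeR adjusted p = 0.00131). Gbp9 averaged 17.8 ± 2.3 CPM in Exp-156 and 8.42 ± 2.36 CPM in Exp-156b, a log2 fold change of 1.09 (SE 0.217, edgeR adjusted p = 0.00564). Irgm2 averaged 24.8 ± 4.41 CPM in Exp-156 and 14.1 ± 3.47 CPM in Exp-156b, a log2 fold change of 0.81 (SE 0.208, edgeR adjusted p = 0.0167). These 3 of 8 members stand beside 42.9% of all tested genes called in either direction, 22.9% higher in Exp-156 and 20.0% lower, so the members' share is near that of all genes. The Exp-156 libraries lay above every Exp-156b library for 4 members, these 3 and Igtp, as they did for 30.9% of all tested genes.

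The other 5 tested members did not pass between the codes. Irgm1 averaged 48.0 ± 8.51 CPM in Exp-156 and 49.7 ± 7.54 CPM in Exp-156b, with a log2 fold change of -0.06 (interval -0.41 to 0.30). The log2 fold changes of Gbp2, Gbp3, Gbp5 and Igtp were 0.18, 0.28, 0.43 and 0.30 (edgeR adjusted p = 0.555, 0.113, 0.31 and 0.0718). The calls depended on single libraries. Without WT replicate 2 edgeR called 6 members, Gbp2, Gbp3 and Igtp being added, and without Tg-ACE replicate 1 it called Gbp7 alone. Over all genes it called 5260 of 13199 without WT replicate 2 and 3409 of 12986 without Tg-ACE replicate 1, so the calls fell over all genes too in the second case. Irgm2 also missed the threshold without Tg-ACE replicate 3 (log2 fold change 0.73, edgeR adjusted p = 0.0502).

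Markers of other cells, and of macrophages themselves, moved with the experiment code, in the same libraries as the 3 members. In bulk RNA, more cells of a type and more RNA per cell cannot be told apart. Of all tested genes, 22.9% were called higher and 20.0% lower in Exp-156. Markers of T and NK cells, which make interferon-gamma, summed to 36.9 and 45.3 CPM in Exp-156, against 8.51 to 14.7 CPM in Exp-156b, with 9 of 12 tested called higher by edgeR and none of the 16 at 0 in all libraries. By genotype these sums ran from 8.51 to 36.9 CPM in Tg-ACE and from 10.7 to 45.3 CPM in WT, and within Exp-156b the highest, 14.7 CPM, was that of WT replicate 2. Monocyte and small macrophage markers summed to 7782 and 7984 CPM in Exp-156, against 1558 to 3038 CPM in Exp-156b. All 10 were called higher in Exp-156, among them the chemokine receptor Ccr2 at 175.9 and 192.4 CPM, against at most 6.14 CPM. That list also holds the MHC class II genes H2-Aa, H2-Ab1 and H2-Eb1 and the gene Cd74, so its sum does not measure monocytes alone. WT replicate 2 held the highest sum of that list in Exp-156b (3038 CPM, against 1558 to 1900 CPM in the others). It also held the lowest B cell marker sum (64.9 CPM, against 94.1 to 147.1 CPM).

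Neutrophil markers (4 of 7 tested called higher, with sums of 273.8 and 589.7 CPM in Exp-156, against 87.6 CPM or more and at most 100 CPM in Exp-156b) and eosinophil and mast cell markers (5 of 5, with 136.2 and 296.0 CPM against 18.6 to 35.2 CPM) were also higher in Exp-156. Mesothelial and fibroblast markers summed lower (233.2 and 250.2 CPM, against 303.2 to 633.3 CPM). Dendritic cell markers summed lower in Exp-156 (294.2 and 300.7 CPM, against 446.1 to 779.5 CPM), although the median log2 fold change of the 4 tested was 0.91. Sums overlapped for B cell markers (109.6 and 138.0 CPM, against 64.9 to 147.1 CPM), macrophage core markers (21900 and 22010 CPM, against 18230 to 22180 CPM) and large peritoneal macrophage markers (807.9 and 927.5 CPM, against 899.0 to 1074 CPM), although the medians of the last list and of the core markers were 2.68 and 1.22. Of 11 tested core marker entries edgeR called 8 higher in Exp-156 and 0 lower. Of 6 large peritoneal macrophage markers it called 4 higher and 2 lower. Erythroid and platelet markers stayed at or below 6.83 CPM. Immediate early and heat shock genes, which respond to handling, summed to 3187 and 3191 CPM in Exp-156, against 2398 to 2634 CPM in Exp-156b. The part of these cells and responses in the differences of Gbp7, Gbp9 and Irgm2 between codes, and in the high values of WT replicate 2, was not tested.

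The members differed in how closely they followed each other. Over the 6 libraries, Pearson's r of log2 CPM was above 0.8 for 13 of the 28 member pairs, with a median of 0.788. The closest were Irgm2 with Igtp (0.972), which share sequence and overlap on the chromosome, and Gbp9 with Irgm2 (0.971), which do not overlap. Gbp2 and Irgm1 went together (0.866), with WT replicate 2 highest for both. Gbp7 and Irgm1 lay furthest apart (-0.023), the first following the experiment code and the second not. These values are descriptions over libraries that share experiment codes.

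The genes whose pattern over the 6 libraries was most like the mean scaled profile of the members included known interferon-response genes. They were picked for the highest r over only 6 libraries, which share experiment codes. The share of interferon-response genes among all genes compared was not counted. Among 9414 named genes with at least 5 CPM on average, Pearson's r with this profile was 0.991 for Adar, an RNA-editing enzyme with an interferon-inducible form. Parp14, an ADP-ribosyltransferase of the interferon response, had 0.99, Zfp780b, a zinc finger gene, 0.989, and Nckap1l, an actin regulator of blood cells, and C3ar1, the receptor for complement C3a, 0.987 each. Parp14 stood at 118.4, 69.3 and 70.1 CPM in Tg-ACE and at 88.6, 88.7 and 62.6 CPM in WT. As in the mean profile of the members, Tg-ACE replicate 1 was highest, WT replicate 3 lowest and WT replicate 2 the highest of Exp-156b. Of the tested members, only Gbp3, Irgm2 and Igtp had this order. Gbp2 and Irgm1 were highest in WT replicate 2, Gbp5 and Gbp9 were lowest in Tg-ACE replicate 2, and Gbp7 was lowest in Tg-ACE replicate 3.

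Upstream, the interferon genes looked at (Ifnb1, Ifna4 and Ifng) were at or near 0. Ifnb1 and Ifna4, type I interferon genes, had 0 counts in all libraries, which allows up to 0.107 to 0.124 CPM per library. Ifng, the interferon-gamma gene, had 5, 0 and 0 counts in Tg-ACE and 10, 3 and 0 counts in WT, too few to compare. Irf1, an early interferon-gamma target and transcription factor, stood at 57.1, 54.2 and 49.1 CPM in Tg-ACE and 55.3, 95.4 and 54.3 CPM in WT, so that WT replicate 2 stood apart. Irf8, which directs macrophage development and cooperates with Irf1, stood at 171.2, 143.7 and 143.9 CPM in Tg-ACE and 191.1, 160.5 and 135.2 CPM in WT. None of the 13 tested interferon-gamma signalling genes was called between genotypes by edgeR or DESeq2 or had an unadjusted p under 0.05, and their median log2 fold change was -0.01.

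Between the codes, 7 of these 13 signalling genes were higher and 1 lower in Exp-156, beside 22.9% and 20.0% of all tested genes. The same shares stand beside the counts between codes of the gene lists that follow. The receptor chain Ifngr1 had 240.7 and 227.3 CPM in the Exp-156 libraries, against 107.8 to 133.3 CPM in Exp-156b (log2 fold change 0.996), and Irf2, an antagonist of Irf1, had a log2 fold change of 0.999 and Socs3, a feedback inhibitor, 1.42. The second receptor chain, Ifngr2, was the lower one (-0.54). Irf1 did not pass (-0.14, edgeR adjusted p = 0.638). Among the 3 tested type I interferon receptor and kinase genes, Tyk2 (0.53) and Ifnar1 (0.34) were higher in Exp-156.

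Other inducible GTPases were called in both directions between the codes, and none between genotypes. Of 11 tested entries of this list, 7 were higher and 1 lower in Exp-156 (edgeR), with a median log2 fold change of 0.51, and none was called between Tg-ACE and WT by edgeR or DESeq2 or had an unadjusted p under 0.05, although 9 of the 11 had a log2 fold change below 0 (median -0.35), and 10 with the code as a term (median -0.23). Gvin1, a very large interferon-inducible GTPase, stood at 91.7, 30.6 and 30.6 CPM in Tg-ACE and 60.3, 50.2 and 29.97 CPM in WT, with a log2 fold change of 1.11 between the codes. The gene models Gm5431 and Gm4070 had 1.45 and 1.03. Gbp6, the single gene called lower, is listed under 2 identifiers, of which ENSMUSG00000079362.5 was at 0 in all libraries. The other, ENSMUSG00000104713.4, stood at 3.45, 5.82 and 6.91 CPM in Tg-ACE and 1.06, 15.3 and 7.0 CPM in WT (log2 fold change -1.88 between the codes, edgeR adjusted p = 0.0303). Gbp6 and its chromosome 5 relatives are close copies, so its value is uncertain. WT replicate 2 was the highest Exp-156b library for 10 of the 11, and 5 of them had an unadjusted p under 0.05 for the difference of the genotype effect between experiments, against 7.65% of all tested genes, none with an adjusted p under 0.05.

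Targets of interferon-gamma outside the GTPase families differed in where they were high. Of 19 tested, edgeR called 3 higher and 4 lower in Exp-156 and none between genotypes (0 with an unadjusted p under 0.05, 0 by DESeq2), with median log2 fold changes of 0.07 and -0.01. Ciita, the activator of MHC class II genes, had 42.3 and 47.9 CPM in the Exp-156 libraries, against 5.76 to 9.12 CPM in Exp-156b (log2 fold change 2.63). Cd274, the checkpoint ligand PD-L1, went the other way (-1.36), as did the chemokine Cxcl10 (-1.86). WT replicate 2 was the highest of Exp-156b for 14 of the 19, among them, chosen after their values were seen, the peptide transporter Tap1 at 102.9 CPM against 63.5 CPM in WT replicate 3 and the proteasome subunit Psmb9 at 46.7 against 28.1 CPM. The chemokine Cxcl9, a gene with almost no reads, had 24 counts in WT replicate 2 and at most 5 in any other library.

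Type I interferon response genes were followed in the same way. All 29 tested lay above WT in Tg-ACE within Exp-156 (median 0.47, 1 library against 1), beside 48.7% of all tested genes. Within Exp-156b the median was -0.01, and 15 of the 29 had opposite signs in the experiments, beside 8 of 8 GTPase members and 27.1% of all tested genes. Between genotypes edgeR and DESeq2 called none, although 26 of the 29 had a log2 fold change above 0 (median 0.21) and 1 an unadjusted p under 0.05 in edgeR. With the code as a term 27 lay above 0 and 6 had an unadjusted p under 0.05, beside 6.48% of all tested genes, and none was called. Between codes edgeR called 13 higher and 3 lower in Exp-156. Oas2 (log2 fold change 2.30), Mx1 (1.75) and Irf9 (0.91) had the smallest p among the genes higher in Exp-156. WT replicate 2 was the highest of Exp-156b for 14 of the 29, a smaller share (48.3%) than for the members (87.5%). The differences between the list and the members in these shares were not tested.

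**Figure D4:**
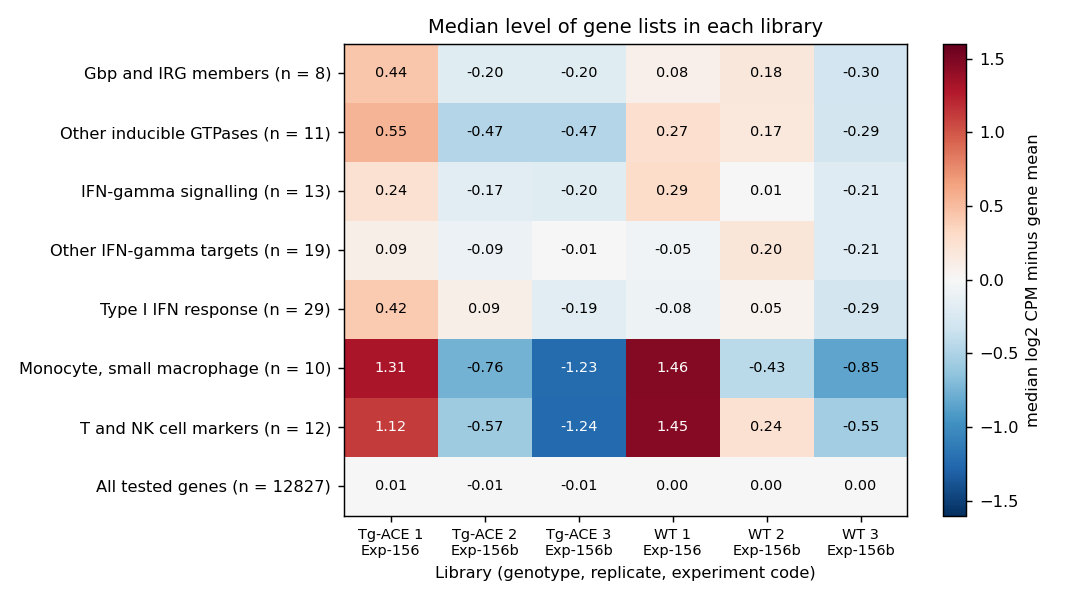
Median over the tested genes of each list of log2 CPM minus the gene's own mean over the 6 libraries (cell value and colour), for Tg-ACE and WT libraries with their experiment codes. The median of the GTPase members is highest in Tg-ACE replicate 1 (0.44) and lowest in WT replicate 3 (-0.30). Medians of the monocyte and small macrophage list and of T and NK cell markers are high in both Exp-156 libraries.

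Among genes that work with these GTPases none was called between genotypes by edgeR or DESeq2, and none had an unadjusted p under 0.05 in edgeR. Of 20 genes of autophagy and vacuole recognition, only some of which help to place Gbp and IRG proteins on their targets, 3 were higher and 7 lower in Exp-156. The adaptor Sqstm1 (-0.91) and the ATG8 family gene Gabarapl1 (-0.72) were among the lower ones and the galectin Lgals9 (0.91) among the higher ones. Of 11 inflammasome genes, 5 were higher and 1 lower in Exp-156, with the cytokine gene Il1b at 7.21 and 8.43 CPM in Exp-156, against at most 0.452 CPM in Exp-156b. Of 6 genes of protein prenylation, the lipid modification that anchors Gbp2 and Gbp5, 1 was higher and 1 lower. These counts stand beside 42.9% of all tested genes called between the codes, 22.9% higher and 20.0% lower in Exp-156.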

How the data were processed

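Stranded poly-A libraries had been sequenced as single 75-base reads, per the labels. What the authors deposited is a single table, without normalization, whose values for the 6 libraries are expected counts. The submitters' processing notes name STAR 2.5.0 and RSEM 1.2.25 and, with no roles, both mm10 and GRCh38; no source used here gives the strand setting. Counts were rounded, and 92 spike-in rows were left out. Up to 11.4% of values per library were not whole, since RSEM divides reads between similar genes.

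edgeR 4.0.16 (R 4.3.3) was used with the quasi-likelihood test, TMM, filterByExpr (12827 genes kept) and Benjamini-Hochberg adjustment at 0.05 over all tested genes. Tg-ACE against WT was fitted on genotype alone, Exp-156 against Exp-156b with genotype as a term, and their difference as an interaction. Standard errors were taken as log2 fold change over root F. CPM uses TMM-scaled library sizes, and log2 CPM a prior count of 2. Alternatives were DESeq2 1.42.0, relative log expression factors, no filter, terms for the code or replicate, single experiments, and leaving out each library. On counts simulated with the dispersion of these libraries (biological coefficient of variation 0.31 for genotype, 0.108 with the code and 0.107 for the interaction), with 100 genes changed by 1 on the log2 scale, the genotype fit recovered 18%, the code fit 96% and the interaction 44%.

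Same-numbered libraries deviated together (r = 0.856, 0.483 and 0.637 over genes), but same-numbered libraries also share an experiment code. With the code removed the values for replicates 2 and 3 were -0.178 and -0.101. Pairs of unlike number in Exp-156b gave -0.094 and -0.143. The main genotype fit therefore did not pair libraries by number, and the replicate block was an alternative only. No pair of libraries was identical (mean chi-square per gene at least 12.8). Members, gene lists and tests were chosen with earlier results of these data known. The text names all members, up to 3 genes per list by smallest p, the 6 genes most like the members, of which 1 is not reported here, and others where stated. Gene positions and exon lengths came from GENCODE vM21 (GRCm38), in which 25251 identifiers were found. The 3 counts taken as the detection limit correspond to 0.107 to 0.124 CPM, for counting error only.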

Additional observations from a re-analysis of the deposited data

How the results depend on the processing

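No member was called between Tg-ACE and WT under any of 13 alternatives, nor for the difference between experiments under any of 7. The count of all genes called for genotype was 0, and it became 1 with no filter, 9 with DESeq2, 2 with the experiment code as a term, 2 with the replicate block, 2 in Exp-156b alone and 38 in DESeq2 with the code (chosen after the data were seen), and 0 to 1 with 1 library left out. The replicate block changed no member's call. For the difference between experiments DESeq2 called 13 genes, and leaving out a library gave 0 to 14, with 14 without WT replicate 3; no value can be had without a replicate 1, the only Exp-156 library of its genotype. Between codes 5502 genes became 3409 to 5260, and 3 members 1 to 6, with 1 library left out. The cause was not tested.

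The members' median log2 fold change for genotype, 0.03, was 0.36 in Exp-156 alone and ran from -0.27 to 0.16 with 1 library left out; that between codes, 0.36, ran from 0.14 to 0.67.

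Directions of the genotype difference, none of them called, reversed as follows. In Exp-156 alone Gbp2 was 0.40, Gbp7 0.14 and Gbp9 0.26. In Exp-156b alone Gbp3 was -0.024, Gbp5 -0.31, Igtp -0.026, Irgm1 -0.077 and Irgm2 -0.22. With the code as a term Gbp5 was -0.034 and Irgm2 -0.015, in DESeq2 with the code Gbp5 was -0.033 and Irgm2 -0.016, and with the replicate block Gbp5 was -0.014. With 1 library left out the ranges were -0.23 to 0.22 for Gbp2, -0.053 to 0.20 for Gbp3, -0.31 to 0.24 for Gbp5, -0.60 to 0.32 for Gbp7, -0.70 to 0.24 for Gbp9, -0.092 to 0.14 for Igtp, -0.019 to 0.26 for Irgm1 and -0.41 to 0.25 for Irgm2. Between codes they were -0.17 to 0.52 for Gbp2 and -0.28 to 0.16 for Irgm1. Of 248 values of single members under alternatives, 209 kept direction and call, 33 reversed, 3 gained and 3 lost a call. Iigp1, Ifng, Ifnb1 and Ifna4 had too few reads at this depth to compare.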
